A study of Mus musculus with 24 samples.

Results

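Immediate early genes are switched on from transcription factors already present in the cell, without the need for new protein. Growth factors acting through ERK and the serum response factor, calcium or cAMP acting through CREB, and stress kinases all reach their promoters, and many of their products are short-lived transcription factors. In neurons they are read as marks of recent activity, and in dividing cells as part of the answer to mitogens. Among 54658 genes of the deposited table, 10 were taken by symbol, namely *Fos*, *Fosb*, *Jun* and *Junb*, which encode subunits of the dimeric transcription factor AP-1, *Egr1*, a zinc finger transcription factor, *Atf3*, a bZIP factor of the stress response, *Nr4a1*, an orphan nuclear receptor, *Ier2* and *Ier5*, of the IER protein family, and *Arc*, a cytoplasmic protein of excitatory synapses. The rule used the symbol alone, and the list was drawn up with earlier results of these data known.

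The 10 genes were followed in 24 mouse libraries that fall into 8 groups of 3. *Cep135*(-/-) embryos, here called mutants, carried on both chromosomes the Δ8 allele, a CRISPR deletion that leaves no detectable protein of this centriole assembly factor, and *Cep135*(+/+) embryos were the controls. The material was E11.5 cortex, E14.5 cortex, and cells of the E14.5 cortices kept 12 or 24 hours in suspension as incipient neurospheres. For the cultures the neocortex was dissociated with papain and the cells received N2, B27, heparin, EGF and FGF2, so dissociation, medium and time in culture cannot be told apart. The same 6 embryos gave the E14.5 cortices and both culture times, mutants 1, 2 and 6 and controls 3, 4 and 5, while the E11.5 embryos, numbered here 1 to 3 in each genotype, were other animals. Their titles carry 2 prefixes, each holding both genotypes, and the E14.5 titles carry 1 other prefix. What a prefix marks is not given in the sources used here, and age and prefix cannot be told apart. The labels of the cortex of mutant 6 name both ages, and it was taken as E14.5 from its title. Values are normalized read counts, the reads of 3′ libraries on a gene divided by 1 size factor per library. In such bulk samples, fewer cells of a type and less RNA per cell cannot be told apart.

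The libraries held 4732781 to 11645213 reads on genes. *Cep135* itself lay between 173 and 336 in mutants and between 171 and 375 in controls, but the 3′ tags lie outside the edit and do not check the genotype. Of 12 markers of dorsal telencephalon 0 were at 0 in any library, and their summed normalized read count was 13348 to 23755 in cortex and 13018 to 18244 in culture. The cultures held less of microglia and endothelium: 12 microglial markers summed to 579 to 1170 in E14.5 cortex and 10.5 to 82.0 in culture, where 0 to 7 of them were at 0, and 12 endothelial markers to 1664 to 2015 and 53.9 to 201, with 1 to 4 at 0 in culture. The 10 markers of red blood cells summed to 38297 to 45422 in E14.5 cortex and to 45601 to 153196 in culture. The 11 liver transcripts summed to 740 to 7399 and 775 to 16635. Without *Ttr* the liver sum was 58.7 to 1087 in E14.5 cortex and 11.3 to 1423 in culture.

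The promoters of 6 members are shown because these genes include 4 whose 12-hour mean was more than 5 times that of the cortex (*Fos*, *Fosb*, *Junb*, *Atf3*), 1 that rose about 2.04-fold (*Jun*) and 1 that did not pass the test there (*Ier5*). Of the 10 members 7 had an entry in the RefSeq promoter table of GRCm38.p6 that could be used here. Each line gives the 150 bases before the start of transcription, read 5′ to 3′ on the strand of the gene. They lie at chr12:85473740-85473889 on the plus strand for *Fos*, and on the minus strand at chr7:19310046-19310195 for *Fosb*, chr8:84978749-84978898 for *Junb*, chr1:191183334-191183483 for *Atf3*, chr4:95052223-95052372 for *Jun* and chr1:155099637-155099786 for *Ier5*. Capitals mark TGACG or its complement CGTCA, the core shared by cAMP response elements, and in *Jun* the TGACATCA, which was searched after its promoter had been viewed.
Fos: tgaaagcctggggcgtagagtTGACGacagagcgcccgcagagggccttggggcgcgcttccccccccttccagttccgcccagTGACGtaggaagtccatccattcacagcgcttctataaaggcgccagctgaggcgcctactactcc
Fosb: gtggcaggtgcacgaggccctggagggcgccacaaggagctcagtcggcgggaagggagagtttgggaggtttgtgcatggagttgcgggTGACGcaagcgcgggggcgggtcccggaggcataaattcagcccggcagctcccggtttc
Junb: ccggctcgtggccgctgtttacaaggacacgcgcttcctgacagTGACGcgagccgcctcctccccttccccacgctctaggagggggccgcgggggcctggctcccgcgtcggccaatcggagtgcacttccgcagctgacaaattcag
Atf3: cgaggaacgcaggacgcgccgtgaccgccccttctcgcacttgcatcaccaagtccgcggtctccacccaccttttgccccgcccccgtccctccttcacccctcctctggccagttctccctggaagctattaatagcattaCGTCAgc
Jun: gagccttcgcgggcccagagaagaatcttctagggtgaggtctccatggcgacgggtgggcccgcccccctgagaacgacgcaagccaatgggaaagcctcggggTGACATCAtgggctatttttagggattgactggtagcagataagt
Ier5: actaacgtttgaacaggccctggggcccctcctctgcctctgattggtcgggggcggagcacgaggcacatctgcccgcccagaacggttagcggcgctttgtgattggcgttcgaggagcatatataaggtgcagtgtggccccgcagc

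The TGACG core began 129 and 66 bases before the start in *Fos*, 60 before it in *Fosb*, 106 in *Junb* and 7 in *Atf3*, and in *Jun* the TGACATCA began 45 bases before it. In windows of 250 bases before to 50 after the start, searched on both strands, TGACG stood in 20.8% of 32851 mouse promoters and TGACATCA in 3.62%. *Nr4a1* held TGACG 4 times and *Jun* and *Ier5* not at all. The full element TGACGTCA, held by 1.79% of promoters, and the AP-1 site TGACTCA, held by 5.20%, were in none of the 7, nor was the CArG box bound by serum response factor, held by 1.63%. Bases further than 250 before the start were not searched, nor were *Egr1*, *Ier2* and *Arc*. The search thus does not show that these genes lack such sites. TATAAA, held by 13.6%, began 33 bases before the start of *Fos* and at the RefSeq start of *Junb*. Each TGACGTCA also holds TGACG, so these shares overlap, and a match describes letters and no binding. All starts here are those of RefSeq. In *Fosb*, *Junb* and *Atf3* they differ from the 5′ end of the GENCODE locus given below. That of *Junb* lies upstream of its locus, which ends at 84978718. That of *Atf3* lies within its locus (191170296 to 191218039).

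In 9 of 10 members the mean over 6 libraries was higher at both culture times than in the E14.5 cortex, and *Ier5* was the exception. By the ratio of the 2 means, 12-hour cultures stood against E14.5 cortex at 41.5 for *Egr1*, 35.2 for *Fos*, 11.2 for *Fosb*, 7.39 for *Atf3*, 5.53 for *Junb*, 4.86 for *Arc*, 4.05 for *Nr4a1*, 2.04 for *Jun*, 1.82 for *Ier2* and 0.970 for *Ier5*. The spread of these ratios covers members that were near 0 in the cortex and members that were already abundant there, and it is drawn for each library in the plot of the 10 members.

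**Figure D1:**
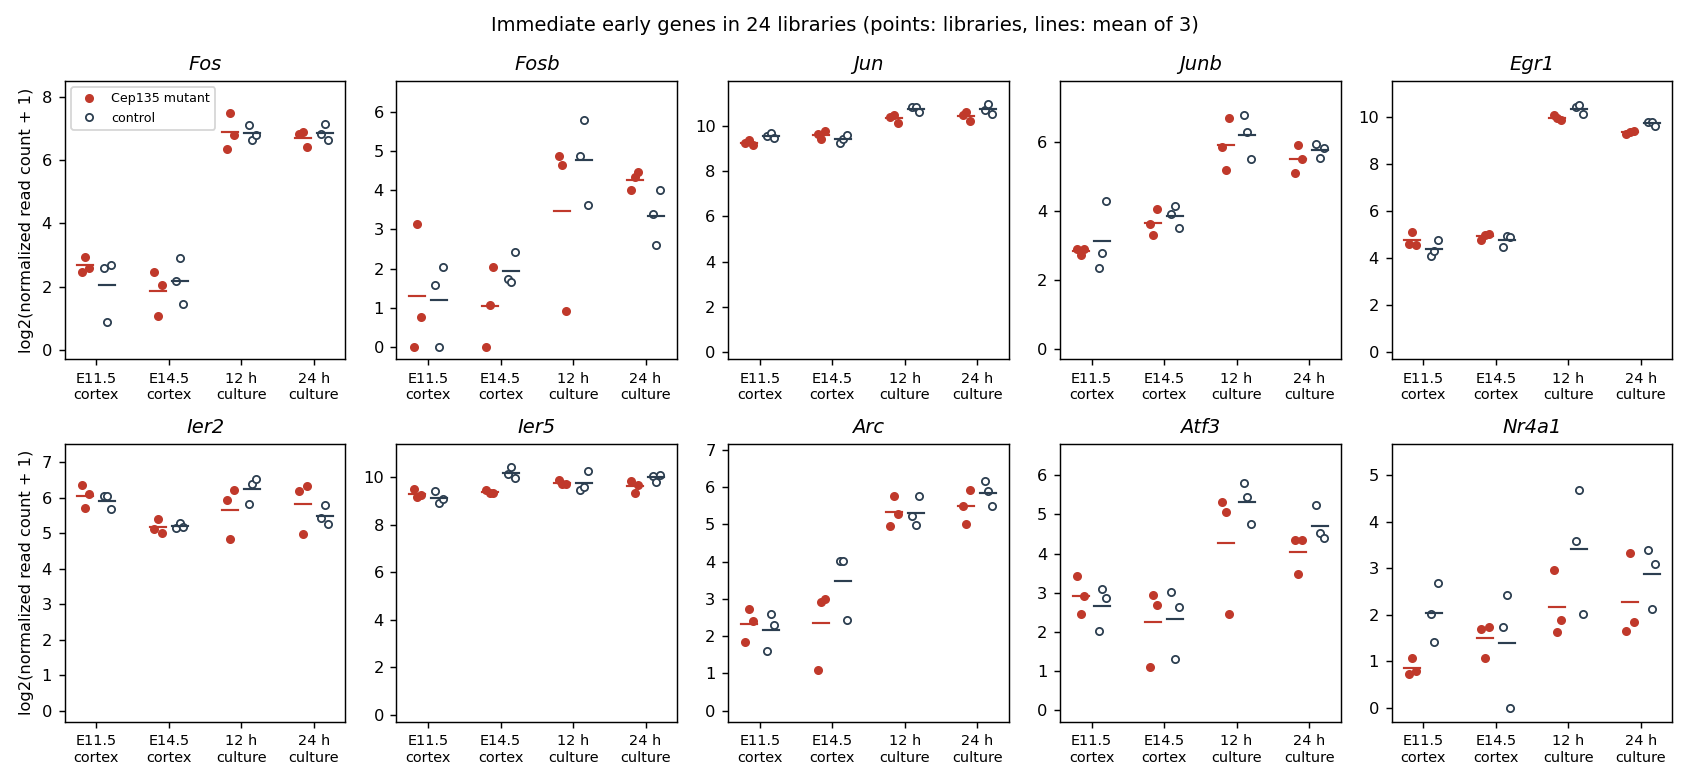
Levels of the 10 immediate early genes in the 24 libraries, 1 panel per gene. The vertical axis is log2(normalized read count + 1), points are libraries (filled, mutants), short lines are means of 3, and the horizontal axis gives E11.5 cortex, E14.5 cortex, 12-hour and 24-hour cultures. The 12 culture points of *Egr1* (624 to 1474 normalized reads) and *Fos* (81.9 to 182) stand apart from all 12 cortex points (16.1 to 33.5 and 0.836 to 6.69), while those of *Ier5* (649 to 1223) lie within the range of its cortices (478 to 1353).

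Dissociation and 12 hours of culture were compared with the cortex the cells came from. The members that reached a mean of 10 in both conditions were *Jun*, *Junb*, *Egr1*, *Ier2* and *Ier5*. Of these 5, 4 rose, 0 fell and 1, *Ier5*, did not pass (limma, adjusted p under 0.05), beside 14.2% of the 12616 genes that reached 10 in both and rose. In 3 of them, *Jun*, *Junb* and *Egr1*, all 6 cultures lay above all 6 cortices, which held for 6.69% of those genes. *Fos*, *Fosb*, *Arc* and *Atf3* reached 10 in the cultures alone and so entered the test through the group where they were high. They also passed, and in *Fos* and *Arc* all cultures lay above all cortices. Since they had to differ to be tested, nothing is read from their number or their p-values. *Nr4a1* reached 10 in neither. Among all 13601 tested genes 14.1% rose and 16.1% fell, 30.2% in all, and 6.66% had all cultures above all cortices.

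*Egr1* (GRCm38 chromosome 18, 34859823 to 34864984, plus strand) had 21.2, 29.3 and 31.3 normalized reads as the lowest, the median and the highest of the E14.5 cortices. After 12 hours the same 3 values were 932, 1107 and 1474. It rose by 5.32 ± 0.15 (log2, SE) with an adjusted p of 1.13e-12, the smallest p of all genes tested and the 4th highest fold change, and it was higher in 6 of 6 embryos.

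*Fos* (chromosome 12, 85473890 to 85477273, plus strand) was hardly read in the cortex, with 1.10, 3.33 and 6.53 as lowest, median and highest, or 23 reads summed over 6 libraries. After 12 hours it had 81.9, 111 and 182, from 699 reads. The fitted difference was 4.86 ± 0.37 (log2, adjusted p = 1.39e-07). Its sister *Fosb* (chromosome 7, 19302696 to 19310051, minus strand), whose product pairs with Jun proteins in the same way, went from 0, 2.27 and 4.36 to 0.896, 26.2 and 54.0. The *Fosb* groups overlapped through the 12-hour culture of mutant 6, whose 0.896 lay below 5 of 6 cortices, and the difference of 2.63 ± 0.73 passed with an adjusted p of 0.0127.

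Among the Jun proteins, *Jun* (chromosome 4, 95049034 to 95052222, minus strand), the main partner of Fos proteins, was abundant before culture. Its lowest, median and highest values were 596, 738 and 887 in E14.5 cortex and 1120, 1485 and 1818 after 12 hours, a rise of 1.02 ± 0.13 (adjusted p = 2.37e-05). *Junb* (chromosome 8, 84974484 to 84978718, minus strand), a weaker activator than *Jun* at many AP-1 sites, went from 8.83, 12.7 and 16.7 to 35.8, 67.5 and 109, a rise of 2.30 ± 0.32 (adjusted p = 7.26e-05). In neither gene did a culture reach down to the cortices.

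*Arc* (chromosome 15, 74669083 to 74672570, minus strand) rose from 1.13, 6.84 and 15.3 to 30.2, 36.9 and 53.7, by 2.41 ± 0.46 (adjusted p = 0.000992) and in 6 of 6 embryos. *Atf3* (chromosome 1, 191170296 to 191218039, minus strand) had 1.13, 5.36 and 7.06 in the cortices and 4.48, 35.8 and 55.1 in the cultures, a rise of 2.53 ± 0.58 (adjusted p = 0.00416). As for *Fosb*, the low culture was that of mutant 6, and 5 of 6 embryos were higher.

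The *Ier* genes differed from the rest in size. *Ier2* (chromosome 8, 84661331 to 84662852, minus strand) had 31.3, 34.5 and 40.8 in the cortices and 27.4, 66.5 and 90.3 in the cultures, with the culture of mutant 2 below all cortices. Its difference of 0.76 ± 0.26 passed with an adjusted p of 0.0398, but not with the embryo as a replicate block (adjusted p = 0.0640), and the call was lost in 9 of 12 fits that left out 1 library. *Ier5* (chromosome 1, 155096361 to 155099636, minus strand) had 646, 843 and 1353 in the cortices and 706, 838 and 1223 in the cultures, with a difference of -0.01 ± 0.16 (adjusted p = 0.980). The lower endothelial and microglial sums and the higher red blood cell sums of the cultures belong to the same libraries. Their part in the values of the members was not tested.

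**Figure D2:**
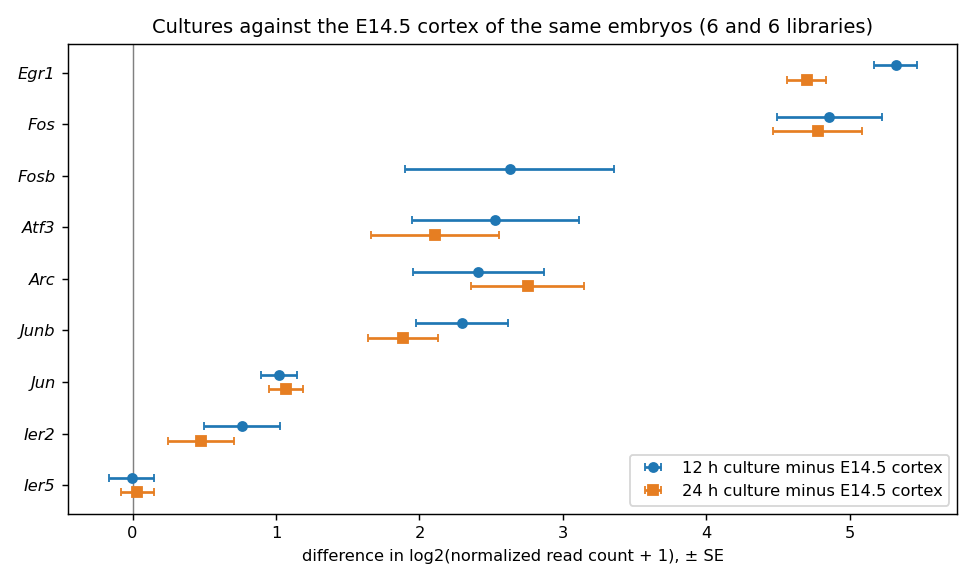
Fitted log2 differences of the members between cultures and E14.5 cortex, with their standard errors, for 12 hours and 24 hours. *Egr1* (5.32 and 4.70) and *Fos* (4.86 and 4.77) stand far to the right, *Jun* at about 1 (1.02 and 1.07) and *Ier5* on 0 (-0.01 and 0.03); *Nr4a1* and, at 24 hours, *Fosb* did not reach the mean of 10 and were not tested.

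After 24 hours most of these levels still stood above the cortex. Of the same 5 members that reached a mean of 10 in both conditions, 3 rose, 0 fell and 2, *Ier2* and *Ier5*, did not pass, beside 19.9% of the 12628 genes that reached 10 in both and rose. The 3 were *Egr1*, *Jun* and *Junb*, and in each the 6 cultures lay above the 6 cortices, as in 8.83% of those genes. *Fos*, *Arc* and *Atf3* passed as well and had all cultures above all cortices. They reached 10 in the cultures alone, so nothing is read from their number or their p-values. Among all 13579 tested genes 20.1% rose and 21.5% fell, 41.6% in all, and 8.96% had all cultures above all cortices. The comparison shares its cortices with that at 12 hours, so the values at the 2 times are not independent.

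*Egr1* had 624, 735 and 891 as lowest, median and highest after 24 hours, 4.70 ± 0.14 above the cortex (adjusted p = 6.77e-14). *Fos* had 84.7, 113 and 140, 4.77 ± 0.31 above it (adjusted p = 3.30e-09), and *Arc* 31.4, 51.7 and 71.0, 2.75 ± 0.39 above it (adjusted p = 2.93e-05). *Junb* had 33.7, 50.9 and 60.1, a difference of 1.88 ± 0.25 (adjusted p = 1.13e-05). These 4 genes thus had cultures well clear of the cortices at each time.

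*Jun* had 1188, 1527 and 2022, which is 1.07 ± 0.12 above the cortex (adjusted p = 2.19e-06). *Atf3* had 10.1, 19.7 and 36.9, 2.11 ± 0.45 above it (adjusted p = 0.00121), now with 6 of 6 embryos higher. *Ier2* with 30.4, 48.1 and 78.6 differed by 0.48 ± 0.23 (adjusted p = 0.108) and *Ier5* with 649, 910 and 1101 by 0.03 ± 0.11 (adjusted p = 0.835). Without the culture of mutant 2, whose 30.4 was the lowest, the difference of *Ier2* was 0.65 with an adjusted p of 0.0208. *Fosb*, with 5.06, 15.0 and 21.0, was higher than in its cortex in 6 of 6 embryos but fell short of the filter on low values.

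Between the 2 culture times 1 of 9 tested members changed, and it fell, against 0.142% of 13359 genes that fell and 0.15% that rose, 0.292% in all. That gene was *Egr1*, which went from 1088, 1001 and 932 at 12 hours to 624, 659 and 683 at 24 hours in mutants 1, 2 and 6. In controls 3, 4 and 5 it went from 1353, 1474 and 1127 to 879, 891 and 786. Every culture at 24 hours was below every culture at 12 hours, which 0.434% of genes showed in this direction. The fall was 0.62 ± 0.09 (log2 -0.62, adjusted p = 0.00309), the ratio of the means was 0.649, and the 6 embryos gave log2 differences of -0.80 to -0.45.

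For *Fos* the 24-hour mean was 111 ± 18.5 (SD, n = 6) against 120 ± 35.4 at 12 hours, a difference of -0.08 ± 0.20 (adjusted p = 0.938), and 4 of 6 embryos were lower. *Junb* differed by -0.41 ± 0.28, *Atf3* by -0.42 ± 0.46 and *Fosb* by -0.32 ± 0.67, with SEs too wide to place them on either side of 0. *Jun* (0.05 ± 0.10), *Ier5* (0.04 ± 0.13), *Ier2* (-0.28 ± 0.31) and *Arc* (0.34 ± 0.27) did not pass either. Whether the change of *Egr1* differed from that of *Fos* was not tested.

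**Figure D3:**
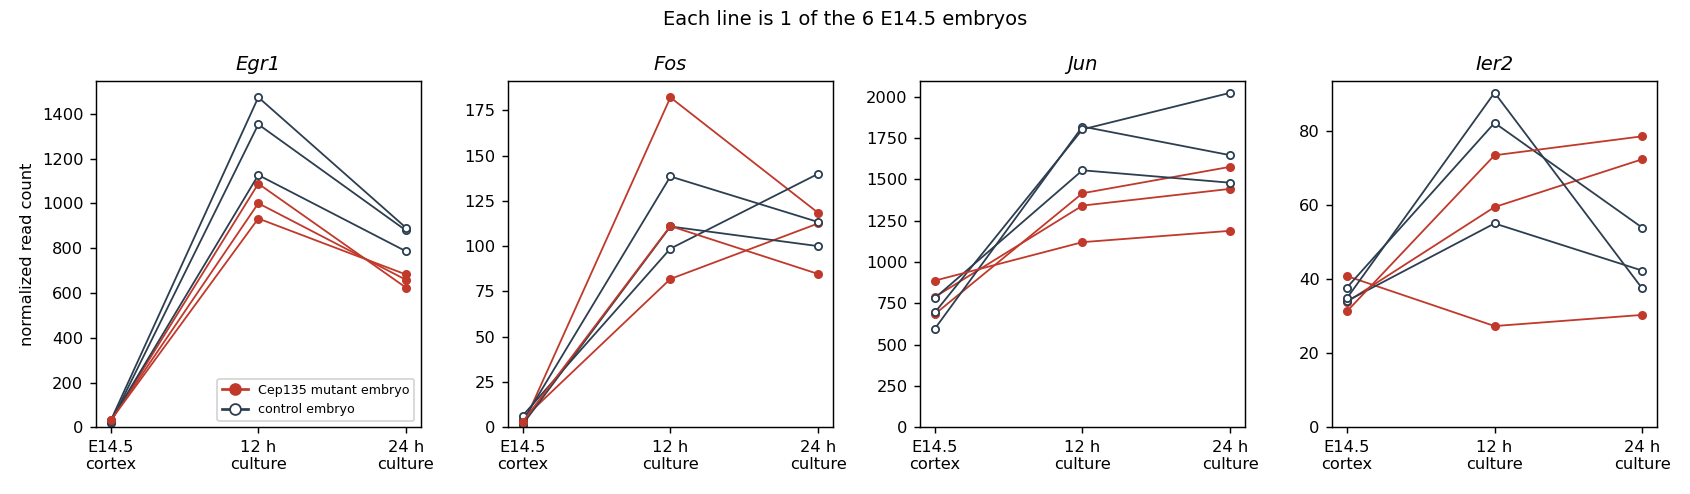
The 6 E14.5 embryos followed from cortex to 12-hour and 24-hour culture, 1 line per embryo and 1 panel per gene, mutants filled and controls open. The vertical axis is the normalized read count on a linear scale. All 6 lines of *Egr1* rise to 932 to 1474 at 12 hours and fall to 624 to 891 at 24 hours, while those of *Fos* rise and then run in different directions.

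*Nr4a1* (chromosome 15, 101254269 to 101274795, plus strand) was too low for a test in any comparison. Its lowest, median and highest values were 0, 2.30 and 4.36 in E14.5 cortex, 2.10, 4.93 and 24.7 at 12 hours and 2.15, 5.44 and 9.56 at 24 hours. The 12-hour mean rests on control 4, the library with 24.7, and in all there were 14 reads in the 6 cortices, 44 at 12 hours and 30 at 24 hours. By normalized reads all 6 embryos were higher at 12 hours than in their cortex, and 4 of 6 at 24 hours. Mutant 6 had 3 reads both in cortex and at 12 hours, and mutant 2 had 1 and 2, so this direction rests on few reads. In E11.5 cortex the mutants had 0.645, 1.12 and 0.721 and the controls 3.02, 1.67 and 5.44, so that all mutants were lower, at 1 to 7 reads per library and with no test, where 6.11% of the genes tested at that age were lower in all mutants.

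A list of 48 other immediate early genes and 1 of 14 upstream regulators were read beside the members. At 12 hours 16 of 41 tested genes of the first list were higher than in cortex, 3 were lower and 22 did not pass, where 14.1% of all genes were higher and 16.1% lower, with a median log2 difference of 0.61 beside -0.06 over all genes tested. The higher genes with the smallest p were *Klf6* (1.86 ± 0.11), a zinc finger factor, *Dusp5* (3.36 ± 0.27) and *Dusp6* (2.92 ± 0.26), phosphatases that act on ERK, and *Trib1* (1.32 ± 0.11), a pseudokinase. *Klf2* (-1.94 ± 0.48), a factor known from endothelium, *Ets2* (-0.56 ± 0.16) and *Zfp36l1* (-0.39 ± 0.12), an RNA-binding protein that promotes mRNA decay, were lower. Endothelial markers fell in the same libraries, and their part in the value of *Klf2* was not tested.

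At 24 hours 26 of 41 tested genes of that list were higher and 3 lower, where 20.1% of all genes were higher and 21.5% lower. The median was 0.71 beside -0.05 over all genes. As at 12 hours, genes that entered through the cultures alone were not counted apart, so nothing is read from these counts or this median. *Klf6* (1.93 ± 0.11), *Ier3* (2.59 ± 0.15), *Dusp5* (3.47 ± 0.21) and *Trib1* (1.42 ± 0.11) led the higher ones, and *Zfp36l1* (-0.61 ± 0.11), *Gadd45g* (-0.50 ± 0.12) and *Klf2* (-2.80 ± 0.70) were lower. From 12 to 24 hours 2 of 42 rose, *Ier3* by 0.94 ± 0.14 (adjusted p = 0.00453) and *Nr4a2* by 0.75 ± 0.14 (adjusted p = 0.0340), and 0 fell in limma. *Nr4a2* encodes a relative of *Nr4a1*.

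Of the upstream regulators 12 of 14 could be tested. At 12 hours 4 were higher than in cortex: *Ep300* (0.69 ± 0.11) and *Crebbp* (0.65 ± 0.12), the acetyltransferases that CREB recruits, *Elk3* (0.84 ± 0.18), a partner of serum response factor, and *Atf1* (0.48 ± 0.17), a close relative of CREB. At 24 hours *Ep300* (0.66 ± 0.09), *Crebbp* (0.68 ± 0.12), *Elk3* (0.73 ± 0.17) and *Mkl1* (0.55 ± 0.18), a coactivator of serum response factor, were higher, and *Crtc1* (-0.39 ± 0.11), a coactivator of CREB, was lower. The 4 of 12 called at 12 hours and 5 of 12 at 24 hours are near the 30.2% and 41.6% called among all genes in either direction. In the higher direction alone, 4 of 12 at each time lay above the 14.1% and 20.1% of all genes. With 12 genes the counts are no result about these regulators. These were shifts of mRNA level only, and the activity of these factors was not measured.

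The cortices of the 2 ages were compared next. Of the 5 members tested 1 rose, 1 fell and 3 did not pass, beside 23.8% of 13650 genes that rose and 29.3% that fell between E11.5 and E14.5, so 2 of 5 called is near the 53.1% called among all genes. *Ier2* fell by 0.80 ± 0.15 (log2 -0.80, adjusted p = 0.000335), from 50.5, 64.4 and 80.6 as lowest, median and highest at E11.5 to 31.3, 34.5 and 40.8, without overlap, as in 14.9% of genes in this direction. *Ier5* rose by 0.56 ± 0.16 (adjusted p = 0.00757), from 478, 591 and 723 to 646, 843 and 1353, and the ages overlapped. The E14.5 values of *Ier5* also lay apart by genotype.

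*Jun* (685 ± 92.6 at E11.5 and 739 ± 101 at E14.5, SD, n = 6) differed by 0.11 ± 0.11 (adjusted p = 0.427) and *Egr1* (23.3 ± 6.16 and 28.0 ± 3.84) by 0.28 ± 0.20 (adjusted p = 0.249). *Junb* had 7.84 ± 5.37 and 12.8 ± 3.12 (difference 0.77 ± 0.34, adjusted p = 0.0696). The other 5 members stayed below a mean of 10 at both ages, with *Fos* at 4.60 ± 1.98 and 3.43 ± 1.96. Cortex of either age thus held few reads of *Fos*, *Fosb*, *Arc*, *Atf3* and *Nr4a1*. Of the other immediate early genes 12 of 39 rose with age and 13 fell. Those that rose were led by *Nr4a3* (2.88 ± 0.22), *Nfil3* (1.49 ± 0.12), *Phlda1* (0.77 ± 0.12) and *Egr3* (2.21 ± 0.40). *Nr4a3* and *Egr3* reached a mean of 10 at E14.5 alone and so entered the test through the age where they were high. Since they had to differ to be tested, nothing is read from their passing or their place in this order. Those that fell were led by *Zfp36l1* (-1.40 ± 0.09), *Dusp6* (-1.56 ± 0.20), *Trib1* (-0.60 ± 0.10) and *Plk3* (-1.02 ± 0.18). Of 12 upstream regulators *Crtc1* (0.71 ± 0.10) and *Elk1* (0.39 ± 0.11) rose, and *Elk3* (-0.92 ± 0.17), *Atf1* (-0.41 ± 0.11) and *Mkl2* (-0.29 ± 0.10) fell. Both lists are to be read beside the 23.8% of all genes that rose and the 29.3% that fell, and their counts lie near these shares. Genes that entered through a single age were not counted apart, so nothing is read from these counts.

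Ordered by their means, the 4 conditions separated fully at few steps. For *Egr1* the order was E11.5 cortex, E14.5 cortex, 24-hour and 12-hour culture, and the ages overlapped while each of the later steps was without overlap. For *Fos*, *Jun*, *Junb*, *Arc* and *Atf3* the ages overlapped and the culture times overlapped, and the step from the higher cortex to the lower culture did not. For *Fosb*, *Ier2*, *Ier5* and *Nr4a1* all neighbours in the order overlapped.

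Mutants and controls were compared to ask whether loss of *Cep135* changed the level of these genes. By limma 0 members passed the threshold in any of the 4 conditions or over the 12 cortices. In E11.5 cortex 0 of 4 tested members passed, where 0.0149% of 13406 genes passed and 6.11% were lower in all mutants without overlap. By unadjusted p 1 member, *Jun*, was under 0.05, at rank 434 of these genes from the smallest p. In E14.5 cortex the count was 0 of 5, where 0.0736% of 13583 genes passed and 6.71% were lower in all mutants. There 1 member, *Ier5*, had an unadjusted p under 0.05, at rank 18. By edgeR 0 members passed in either, and by DESeq2 0 passed at E11.5 and 1, *Ier5*, at E14.5.

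At E14.5 mutants 1, 2 and 6 had 701, 650 and 646 normalized reads of *Ier5*, against 1122, 1353 and 985 for controls 3, 4 and 5. All mutants were below all controls, by 0.78 ± 0.14 (log2 -0.78, unadjusted p = 0.000160, adjusted p = 0.119 by limma). The adjusted p was 0.122 by edgeR, 0.000506 by DESeq2, 0.0225 by limma without the filter on low values and 0.0325 without control 5. With a term for embryo sex the difference was -0.82 and its adjusted p 0.580. Mutants 1 and 2 were female by *Xist* and Y-linked transcripts and mutant 6 and the controls male. The microglial sum in the same cortices was 980 to 1170 in mutants and 579 to 642 in controls, also without overlap, and the dorsal telencephalon sum 17887 to 20150 and 20265 to 23755. Their part in the value of *Ier5* was not tested.

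The E11.5 mutants had 723, 571 and 610 reads of *Ier5* against 675, 478 and 532 for the controls, a difference of 0.18 ± 0.15. The 2 ages differed in the genotype effect of *Ier5* by -0.96 ± 0.21 (unadjusted p = 0.000348), which did not pass over all genes by limma (adjusted p = 0.466) or edgeR (0.296) and passed by DESeq2 (0.0211). In this test of the difference 0 of 5 members and 0% of 13650 genes passed by limma. The 2 members *Ier5* and *Jun* had an unadjusted p under 0.05, at ranks 10 and 336 of these genes. By edgeR 0 members passed as well.

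For *Jun* the E11.5 mutants had 604, 665 and 568 and the controls 748, 819 and 707, so that all mutants were lower, by 0.31 ± 0.11 (log2 -0.31, adjusted p = 0.614). In the same E11.5 libraries the microglial sum was 570 to 743 in mutants and 365 to 548 in controls and the endothelial sum 1995 to 2165 and 1758 to 1951, and their part was not tested. At E14.5 its mutants had 788, 685 and 887 and its controls 596, 695 and 782, which overlapped (0.19 ± 0.15). *Egr1*, *Ier2* and, at E14.5, *Junb* overlapped between genotypes at each age at which they were tested. Over the 12 cortices, with age as a term, 0 of 5 members passed by limma, edgeR or DESeq2 and 0 had an unadjusted p under 0.05 by any of the 3, where 0.139% of 13650 genes passed by limma. *Ier5* then differed by -0.30 ± 0.16 (adjusted p = 0.610).

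In the cultures at 12 hours 0 of 9 members passed by limma, edgeR or DESeq2, and 2 had an unadjusted p under 0.05 by each of the 3. Among all 13389 genes 0% passed by limma, with 650 at an unadjusted p under 0.05, 0 passed by edgeR and 9 by DESeq2. The 2 members were *Jun* and *Egr1*, in both of which all mutants lay below all controls, as in 5.94% of genes. The values of *Jun* were 1341, 1415 and 1120 for mutants against 1818, 1801 and 1554 (-0.42 ± 0.15, adjusted p = 0.913), and those of *Egr1* 1088, 1001 and 932 against 1353, 1474 and 1127 (-0.38 ± 0.16, adjusted p = 0.913). Sums of other cell types also lay apart by genotype in these libraries. For microglia they were 19.7 to 31.2 in mutants and 37.6 to 64.5 in controls. For endothelium they were 134 to 201 and 53.9 to 102. The liver transcripts summed to 5442 to 15903 and 1943 to 5032. Without *Ttr* the liver sums overlapped, at 210 to 934 and 23.6 to 1423. The part of these sums in the values of *Jun* and *Egr1* was not tested.

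At 24 hours 0 of 9 members passed by limma, edgeR or DESeq2, where 0.271% of 13300 genes passed by limma. By each of the 3, 2 members, *Egr1* and *Ier5*, had an unadjusted p under 0.05. By limma they stood at ranks 454 and 961 of these genes from the smallest p, and *Jun* (unadjusted p = 0.0654) stood at rank 1715. Many other genes were thus under 0.05 as well, and the count is no result about the members. The mutants had 624, 659 and 683 reads of *Egr1* against 879, 891 and 786, again all lower (-0.38 ± 0.13, adjusted p = 0.283). *Atf3* was likewise lower in all mutants, with 16.2 ± 5.29 (SD, n = 3) against 26.3 ± 9.24 (-0.66 ± 0.48, adjusted p = 0.673). *Fosb* was higher in all of them, with 15.05, 19.2 and 21.0 against 9.56, 5.06 and 15.002 (0.93 ± 0.59, adjusted p = 0.618). Lack of overlap was seen in 9.06% of genes in the lower and 7.15% in the higher direction.

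At 24 hours the mutants had 1442, 1575 and 1188 normalized reads of *Jun* against 1645, 2022 and 1479, which overlapped (-0.29 ± 0.14, adjusted p = 0.507). *Ier5* was 923, 649 and 814 against 1051, 897 and 1101 (-0.36 ± 0.15, adjusted p = 0.395). *Fos* showed no separation at either time, with differences of 0.04 ± 0.33 at 12 hours and -0.16 ± 0.23 at 24 hours. Between the genotypes the 24-hour libraries also differed in depth, 7903426 to 11645213 reads in mutants and 4732781 to 5709443 in controls, in the share of normalized reads on the ribosomal-sequence gene *Gm42418*, 20.5% to 23.0% and 6.26% to 13.9%, and in the sum of liver transcripts other than *Ttr*, 122 to 396 and 11.3 to 27.0. Genotype cannot be told apart from these at 24 hours.

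When the 2 culture times of each embryo were averaged, a choice made after the data had been seen, *Egr1* was lower in mutants by 0.38 ± 0.11 (log2 -0.38, unadjusted p = 0.00495, adjusted p = 0.294) and *Jun* by 0.35 ± 0.12 (log2 -0.35, adjusted p = 0.382). In that fit 0 of 9 members passed and 0.00749% of 13359 genes did. Whether the step from cortex to 12-hour culture differed by genotype was tested as an interaction, in which 0 of 9 members and 0% of 13601 genes passed by limma and 0 members by edgeR and DESeq2. *Jun* gave -0.61 ± 0.21, *Ier5* 0.78 ± 0.26 and *Egr1* -0.53 ± 0.27 (adjusted p = 0.793 each). Of these *Jun* and *Ier5* had an unadjusted p under 0.05, at ranks 100 and 72 of the 13601 genes by limma. For the step from 12 to 24 hours 0 of 9 members and 0% of 13359 genes passed by limma, 0 members by edgeR or DESeq2, and 0 members had an unadjusted p under 0.05. *Egr1* gave 0.00 ± 0.19.

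**Figure D4:**
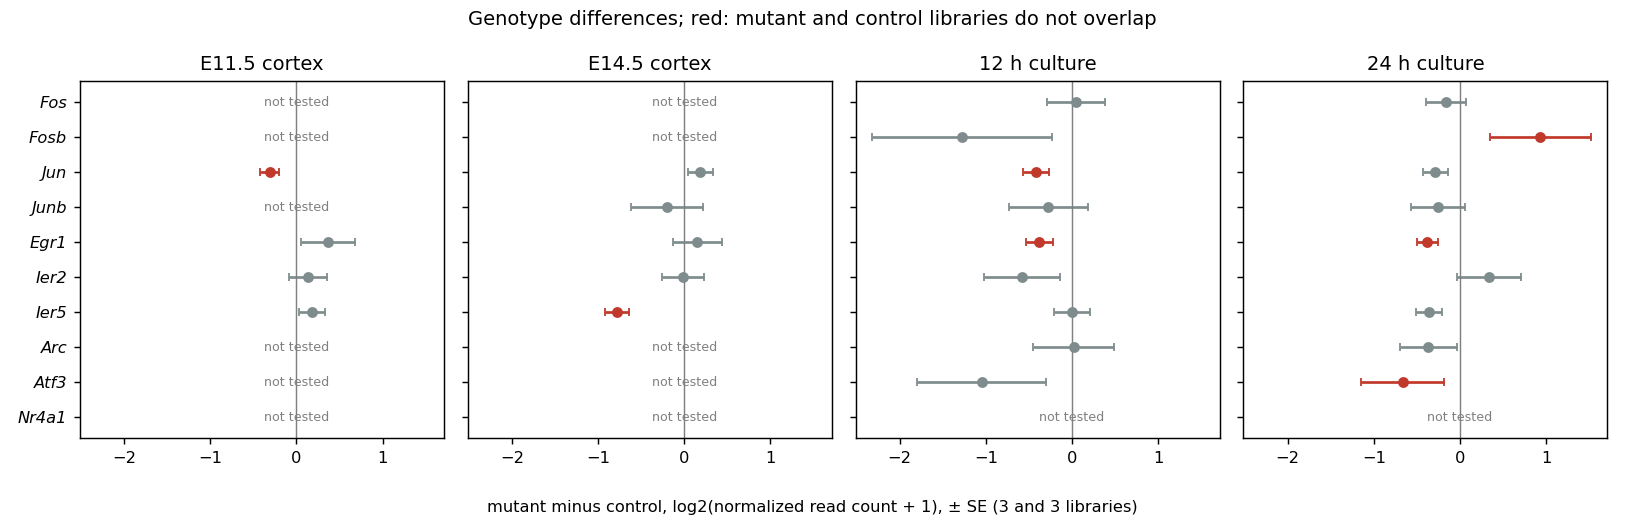
Mutant minus control differences of the members on the log2 scale with their standard errors, in E11.5 cortex, E14.5 cortex, 12-hour and 24-hour cultures (3 embryos of each genotype per panel). *Ier5* at E14.5 (-0.78), *Jun* at 12 hours (-0.42) and *Egr1* at 12 and 24 hours (-0.38 each) lie below 0, and 0 members passed the adjusted threshold by limma; red points mark members whose genotypes did not overlap, and members under a mean of 10 are given as not tested.

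The other immediate early genes and the upstream regulators had 0 members past the threshold by limma in each of the genotype comparisons. Their median genotype differences lay close to those of all genes in the cultures: -0.06 for the 42 tested immediate early genes at 12 hours and -0.01 for 40 at 24 hours, beside -0.02 and -0.01 over all genes. In the cortices they were 0.14 for 37 genes at E11.5 and -0.10 for 39 at E14.5, beside 0.02 and 0.01.

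The members differed in how well replicates agreed. The pooled SD within groups on the log2 scale was 0.17 for *Jun*, 0.22 for *Egr1* and 0.23 for *Ier5*, below the median of 0.33 over 13678 genes. It was 0.43 for *Ier2*, 0.56 for *Junb*, 0.58 for *Fos*, 0.63 for *Arc*, 0.84 for *Atf3* and 1.21 for *Fosb*, so 6 of 9 members lay above the median. Those 6 were the members with the fewest reads, and an effect of a given size was harder to see in them.

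Likeness of pattern was measured as Pearson's r with *Fos* over the 24 libraries, after each of the 8 groups had been centred on its mean, among 13677 other genes. The libraries share embryos and size factors, so r is given as a description. In the cortices *Fos* had 1 to 9 reads per library. Its log2 SD within groups was 0.25 to 1.02 in cortex and 0.24 to 0.58 in culture. The values of r thus rest in large part on libraries where *Fos* was near the floor. The genes most like *Fos* were *Fbxo41* (0.76), *Gclc* (0.75), *Chn2* (0.74), *Irf2bp2* (0.73) and *Mib1* (0.72). They were picked as the highest of 13677 values, and how high the top values run among unrelated genes was not tested. The other members were far down this order, with *Junb* at 0.21, *Ier5* at 0.20, *Fosb* at 0.15, *Jun* at 0.13, *Egr1* at 0.10 and *Arc* at -0.02, and *Ier2* at -0.38 and *Atf3* at -0.39 varied against it.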

How the data were processed

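RNA of 24 mouse libraries was studied in 8 groups of 3, mapped from the sample labels. Per the methods and the submitters' processing notes, the authors trimmed adapters and polyA tails, used FastQC 0.11.7, aligned the 3′ reads with TopHat 2.0.10 (with SAMtools 0.1.19 and, as its engine, Bowtie 1.0.0) to GRCm38, and counted them with HTSeq 0.6.1 on GENCODE vM20. The authors deposited 1 table of signal, counts scaled by a size factor for each library with replicates kept apart, of which 0 sample columns were left out here. All 484666 values above 0 were whole multiples of 1 read (tolerance 1e-06 of a read, 100%), and 1 read was worth 0.645 to 1.69. In E11.5 control 1 it was worth 1.01, so near 1 that the step is less sure there. No 2 libraries held identical values.

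Genes whose mean reached 10 over the libraries of a comparison were tested with limma 3.58.1 (R 4.3.3, intensity trend) on log2(value + 1), two-sided, with Benjamini-Hochberg adjustment over all genes tested and a threshold of 0.05. Fold changes on this scale understate the change of low genes. The ± values of differences are standard errors. The genotype tests compared 3 embryos with 3, and culture tests set 6 libraries against 6. Simulated counts with known changes were used as a check. Among 13378 genes the genotype test at 12 hours recovered 56.2% of 96 genes changed by 1 on the log2 scale. It recovered 99.0% of those changed by 2. For 12-hour culture against E14.5 cortex the shares were 96.7% of 92 and 100% of 97 (13575 genes). Every simulated gene had the same spread beyond that of counting, and no differences between embryos were simulated. The pooled SD of *Junb*, *Fos*, *Arc*, *Atf3* and *Fosb* was 0.56 to 1.21, so these shares do not give the recovery for them.

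Alternatives were a filter of 50 in place of 10 or none, pseudocounts of 0.1 and 5, TMM rescaling, quantile normalization, edgeR 4.0.16 and DESeq2 1.42.0 on whole reads, all 24 libraries in 1 fit, a term for embryo sex, the title prefix as a block in E11.5 cortex, the embryo as a replicate block and leaving out each library. The embryo numbers of the titles pair cortex and cultures of the same animal, and deviations from group means correlated with r of -0.11 to 0.24 over 18 pairs (median 0.14, 12 over 0.1). The average of both culture times was added after the data had been seen. The members and lists were chosen with earlier results of these data known. All members are named, and of the other lists at most 4 genes per direction and comparison, by smallest p among those called, and the 5 genes with the highest r with *Fos*. Loci are from GENCODE vM21. The promoters of *Ier2*, *Arc* and *Egr1* were not used here.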

Additional observations from a re-analysis of the deposited data

Results flagged for a closer look

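*Ier2* from 12 to 24 hours moved in opposite directions in the 2 genotypes. It went up in all 3 mutants, by 0.28, 0.15 and 0.10 on the log2 scale in mutants 1, 2 and 6 (mean 0.17), and down in all 3 controls, by 0.37, 0.60 and 1.25 (mean -0.74). The mutants had 59.5, 27.4 and 73.5 normalized reads at 12 hours and 72.4, 30.4 and 78.6 at 24 hours, and the controls 55.1, 82.2 and 90.3 and then 42.3, 53.9 and 37.5. The difference was tested as an interaction and did not pass (limma, 0.91 ± 0.61, unadjusted p = 0.151, adjusted p = 0.99997). The pattern came from a scan of every member over every step among cortex and cultures. How many of all genes show it was not counted, so it is no result about *Ier2*. The controls had 5248040 to 9635546 reads at 12 hours and 4732781 to 5709443 at 24 hours, the mutants 8076868 to 10620164 and 7903426 to 11645213, and the part of depth was not tested.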

How the results depend on the processing

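With 3 libraries per group the genotype tests find changes of 1 on the log2 scale in part only, and members near 10 normalized reads rest on few reads, so that a member that did not pass is not shown to be unchanged. Among the alternatives that kept all libraries, 682 of 701 log2 differences kept their direction and their side of the threshold, 13 reversed, 4 passed newly and 2 no longer passed, and 119 of 126 counts of members stayed within 1.5 times. No cause was tested unless the alternative itself leaves fewer genes. The count for genotype at E14.5 became 1 without the filter and 1 by DESeq2, and that for the interaction of genotype with age became 1 by DESeq2, *Ier5* each time. With a mean of at least 50, which tests fewer members, the counts were 1 for the ages, 4 for 12-hour culture and 3 for 24-hour culture against cortex, and 2 for members above the median spread. *Fos* and, at 12 hours, *Ier2* entered these tests through the cultures alone, so nothing is read from the counts against cortex.

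Of the values that reversed, 0 passed the threshold. With a term for sex the genotype differences were 0.20 for *Junb* at E14.5, -0.047 for *Fos*, 0.49 for *Junb*, -0.053 for *Ier5* and -0.047 for *Arc* at 12 hours, 0.083 for *Arc* at 24 hours and -0.079 for *Ier2* over the 12 cortices. For *Ier5* the genotype difference at 12 hours was -0.038 by edgeR and -0.032 by DESeq2, its difference of 12-hour culture from cortex 0.0084 with TMM, 0.026 by edgeR and 0.019 by DESeq2, and that of 24-hour culture -0.080 with quantile normalization.

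In the paired fit, with the embryo as a replicate block, the members called were 7 at 12 hours against cortex (*Ier2* lost, 0.76, adjusted p = 0.0640), 6 at 24 hours against cortex, 1 between culture times and 0 in both interactions, and no other call changed. Over all genes the block moved the calls between culture times from 39 to 104.

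Leaving out 1 library gave 0 to 1 members for genotype at E14.5, the 1 being *Ier5* without control 5, 6 to 8 and 6 to 7 for 12-hour and 24-hour culture against cortex, and 5 to 6 above the median spread. *Ier2* at 12 hours (0.67 to 0.98, adjusted p = 0.00406 to 0.0903) passed only without the cortex of mutant 2, the culture of mutant 2 or the culture of control 3, and without the filter its adjusted p was 0.0660. At 24 hours it passed with quantile normalization (0.66, adjusted p = 0.0342) and without the culture of mutant 2. Without the cortex of mutant 6, whose age label is in doubt, 7 members were called at 12 hours (*Ier2* lost), 6 at 24 hours, 2 between ages and 0 by genotype, with *Ier5* at -0.76 (adjusted p = 0.104). Genotype differences that changed sign ranged from -0.011 to 0.31 for *Ier2* at E11.5 and -0.12 to 0.06 at E14.5, -0.014 to 0.13 over the 12 cortices, and at 12 hours from -0.26 to 0.31 for *Fos*, -1.97 to 0.0015 for *Fosb*, -0.66 to 0.084 for *Junb*, -0.15 to 0.25 for *Ier5* and -0.20 to 0.24 for *Arc*. Those of *Ier5* against cortex ranged from -0.073 to 0.10 at 12 hours and -0.041 to 0.11 at 24 hours. Between culture times they were -0.19 to 0.068 for *Fos*, -1.01 to 0.026 for *Fosb*, -0.0022 to 0.10 for *Jun* and -0.046 to 0.13 for *Ier5*, and the interaction of *Egr1* -0.081 to 0.11.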
